A study of Mus musculus with 6 samples.

Results

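The semaphorins, plexins, neuropilins, Slits, Robos, netrins and netrin receptors were compared between sorted cells with and without Sox9-EGFP from the mouse forelimb autopod, the hand plate in which the digits form. The genes were taken by symbol: the names that start with Sema3 to Sema7 or with Plxna to Plxnd, Nrp1, Nrp2, Slit1 to Slit3, Robo1 to Robo4, Ntn1 to Ntn5, Unc5a to Unc5d, Dcc and Neo1. They are 63 probes of 48 genes among the 55681 probes of the array. Both groups came from C57BL/6 embryos at stage E11.5 that carried EGFP knocked into the Sox9 locus, so the negative cells bear the knock-in as well. Mesenchymal cells were sorted into Sox9-EGFP positive cells (3 samples) and Sox9-EGFP negative cells (3 samples), each a pool of some 10 autopods that had an array of its own. The sources do not give the gates or say whether samples came from separate litters, so p-values measure the spread between these samples.

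These families were found as cues that steer growing axons. Class 3 semaphorins are secreted and bind neuropilins, which signal together with plexins of class A, while most semaphorins of classes 4 to 7 are membrane proteins that bind plexins directly. Slits are secreted ligands of Robo receptors, and netrins are secreted ligands of Dcc, neogenin (Neo1) and the Unc5 receptors. In the limb the same proteins guide motor and sensory axons and vessels, and they act on the adhesion and movement of cells outside the nervous system.

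Sox9, the reporter gene of the sort, differed by 4.37 log2 units and Col2a1, the main collagen of cartilage, by 5.19 (limma adjusted p = 0.000146 and 0.000145), both higher in the positive cells. Values are log2 signals relative to the 75th percentile of each array, so 0 is that percentile and a difference of 1 is a 2-fold one. They can be set side by side between arrays for 1 probe, not between probes. The array of positive replicate 1 stood apart: its 75th percentile lay at a signal of 126, against 385 to 478 on the other 5 arrays. All 8 mesenchyme markers were above background on all 6 arrays. Their summed level, in multiples of the 75th percentile, was 121 to 126 in positive and 237 to 246 in negative cells. The sums add the signals of different probes, so bright probes weigh most, and the members of the mesenchyme list were split. Prrx2, Twist1, Twist2 and Hoxd13 were lower in positive cells, Pdgfra (0.79) and Tbx5 (1.02) were higher, and Prrx1 (−0.06) and Hoxa13 (−0.76) were not called. Cartilage markers summed to 291 to 330 in positive and 66.6 to 91.4 in negative cells, where the Sox5 probe (6.25, 6.18 and 5.75) set most of the sum. Of the 7 tested, 5 were higher, Sox6 among them through its positive arrays alone, and Sox5 (0.32) and Acan (0.58) were not called. Markers of other cell types were also measured. Muscle precursor markers summed to 0.0923 to 0.229 in positive and 0.563 to 1.35 in negative cells. Limb ectoderm markers summed to 14.1 to 28.1 in positive and 7.91 to 10.1 in negative cells, a sum set mostly by the Trp63 probe, and endothelial markers to 12.2 to 17 in positive and 17.7 to 21.4 in negative cells. Red cell and leukocyte markers peaked at 43 and 19.1 on the array of negative replicate 2. Of the ectoderm markers 8 of 9 were above background on some array, as were 6 of 9 endothelial and 4 of 6 muscle precursor markers. In the list for nerve, Schwann cells and neural crest, 6 of 8 were. Markers above background on no array included Cdh1 (ectoderm), Emcn, Tek and Tie1 (endothelium), Myf5 and Pax7 (muscle), and Foxd3 (neural crest).

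Among the 48 genes, 42 passed the filter for signal above background, 36 of them on all 6 arrays, and 6 did not pass (Ntn4, Ntn5, Plxnb3, Robo3, Sema3e and Unc5d). In Sox9-EGFP positive cells Unc5c, Robo2, Sema3b and Robo1 were higher, from 4.0-fold for Robo1 to 4.95-fold for Unc5c. Sema3d, below background in negative cells, was also higher, by an amount that depended on the processing (1.87 log2 units in the authors' series matrix). Sema3c, Plxna4 and Sema5b were lower by 6.89-fold, 5.35-fold and 3.97-fold. Robo1 and Robo2, the Slit receptors, were higher together, while both neuropilins were lower. Of the 42 genes tested, 21 passed an adjusted p of 0.05 (limma, adjusted over 13196 genes), 10 of them higher and 11 lower in the positive cells. That is 50% of the members tested, beside 35.0% of all genes. Sema3d passed the filter through its positive arrays alone and so had to differ. Sema3c passed through its negative arrays alone, with 2 of 3 positive arrays above background. Under a filter that asks for signal above background on all 6 arrays, which leaves out Sema3d and Sema3c, 9 members were called higher and 10 lower of 36 (all genes 38.1%). Over the 42 genes, 23.8% were higher beside 10.6% of all genes, and 26.2% were lower beside 24.4%. At least 2-fold differences were carried by 15 called members, 8 higher (beside 5.32% of all genes) and 7 lower (beside 5.70%). The 3 positive and the 3 negative values did not overlap in 25 members, 59.5% beside 51.3% of all genes. The median difference over the 42 genes was −0.08, and over all genes it was −0.18. A member's difference relative to all genes is thus its value less −0.18. Every slide (3 in all) carried 1 positive and 1 negative array, and within them the sign of every called member was the same, which follows from the lack of overlap. With slide as a block 12 were called higher and 10 lower (all genes 39.7%), and without positive replicate 1 the counts were 10 and 13 (all genes 39.2%). In bulk samples, fewer cells of a type and less RNA per cell cannot be told apart.

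Markers of other cells moved with the groups too. Among nerve and Schwann cell markers, Sox10 (1.70) and Stmn2 (0.92) were higher in positive cells (limma adjusted p = 0.0253 and 0.0274), while Tubb3 (−0.0034) and Elavl4 (−0.54) were not called. Sox10 was above background on 1 of 3 negative arrays and passed the filter through the positive arrays alone, which favoured a rise. Of 5 ectoderm markers tested, Krt8 (1.22) and Trp63 (1.01) were higher (0.0018 and 0.0379), while Esrp1 (0.73), Krt14 (−0.03) and Epcam (−0.43) were not called. All 4 muscle precursor markers tested, Pax3, Myod1, Myog and Lbx1, were lower. The first 3 were above background on no positive array and Lbx1 on 1. All 4 passed the filter through the negative arrays alone, so their direction was largely fixed by the filter. Of 3 endothelial markers tested, Egfl7 was lower (−0.71, limma adjusted p = 0.00884), while Pecam1 (−0.11) and Kdr (0.36) were not called. The part of these cell types in the values of the guidance genes was not tested.

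**Figure D1:**
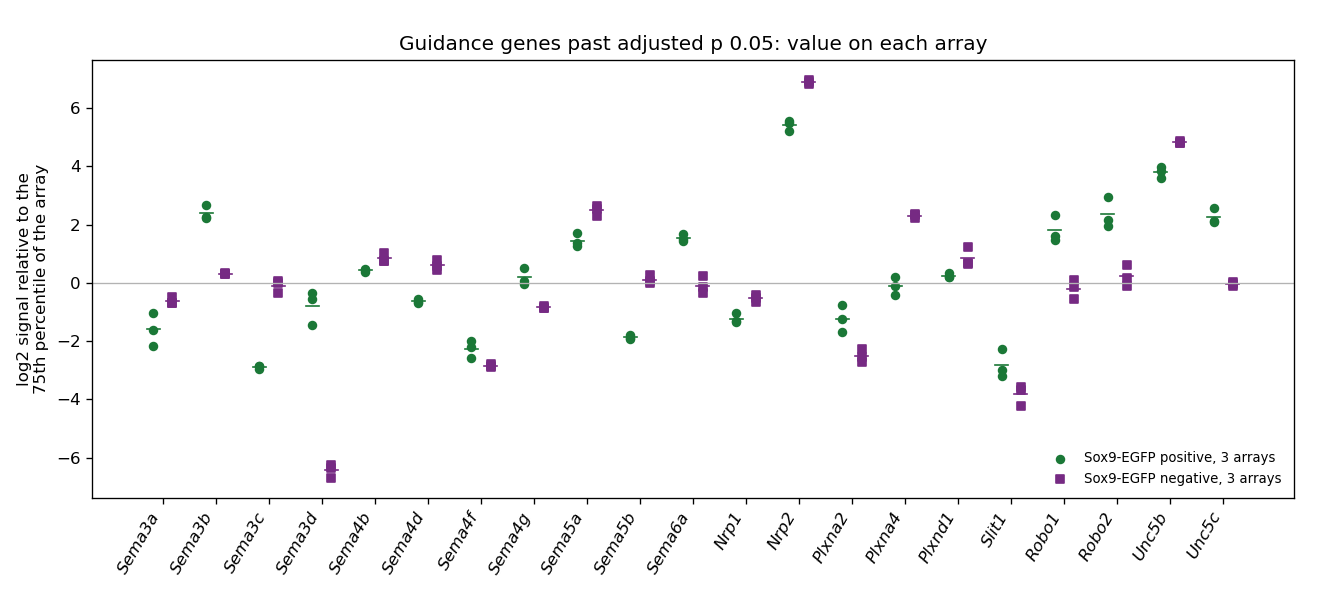
Value of each of the 21 called guidance genes on every array, as log2 signal relative to the 75th percentile of the array (vertical axis), for 3 Sox9-EGFP positive arrays (circles) and 3 Sox9-EGFP negative arrays (squares), with the mean of each group as a short line. The groups are apart for every gene shown, most for Sema3d, whose negative values of −6.70 to −6.24 were not well above background.

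**Figure D2:**
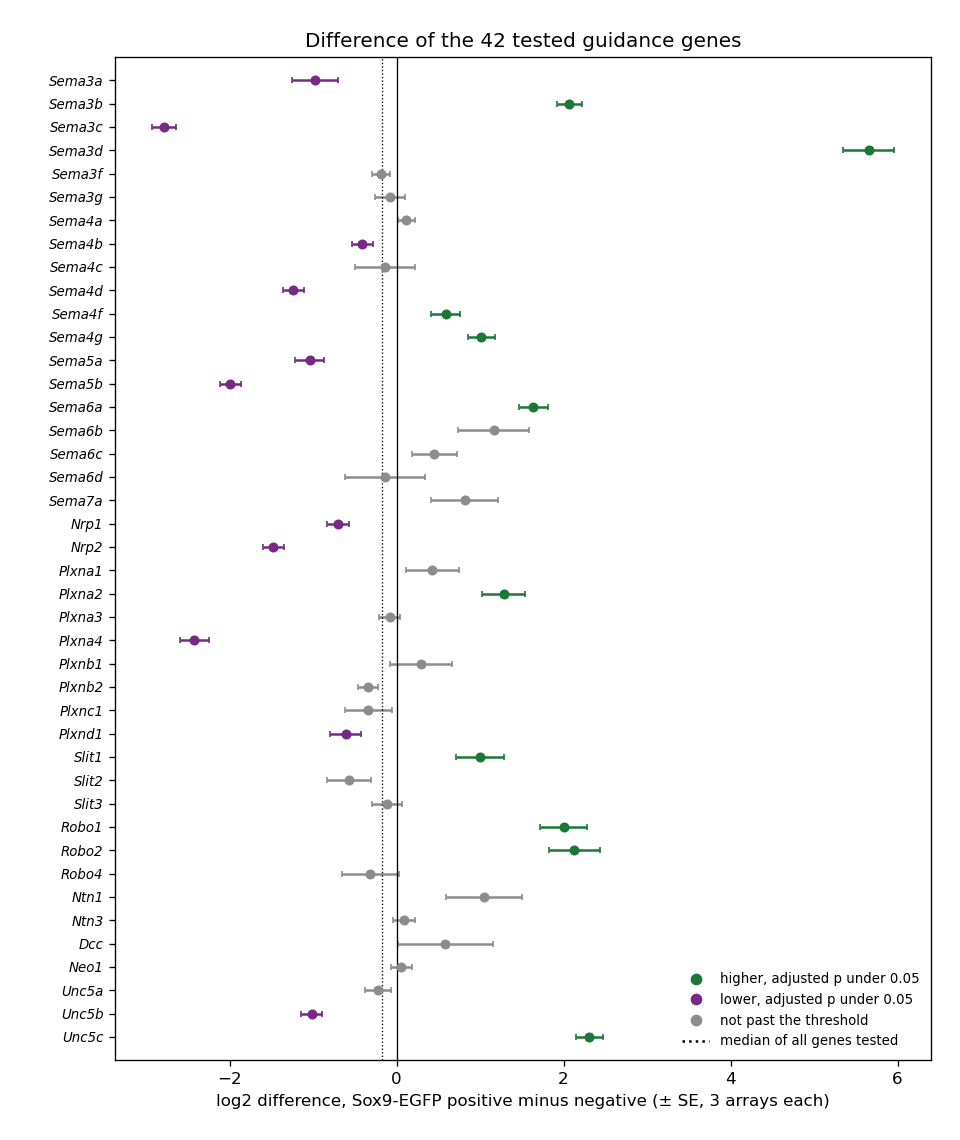
Difference of the 42 tested genes, Sox9-EGFP positive minus negative, in log2 units with its standard error (3 arrays each), by family from top to bottom. Of these, 10 are higher and 11 lower past the adjusted p of 0.05, and the dotted line is the median of all genes at −0.18. The point for Sema3d (5.65) uses negative values below background.

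Probes of 5 genes with large differences are shown by a stretch of 30 of their 60 bases, 5′ to 3′ as the files list them, to identify what was measured. Their positions are in the mm9 build: Sema3d at chr5:12586981-12587040, Plxna4 at chr6:32094602-32094661, Robo1 at chr16:73046190-73046249, Robo2 at chr16:73894653-73894712 and Unc5c at chr3:141497142-141497201. Bases 1 to 30 are printed in lower case, with nothing in capitals.
Sema3d: ggtacctatctcaagggcataacattatct
Plxna4: ctcaccttgaataccaaccttttgaaagaa
Robo1: cagttctaagggaacaatccacgtgattaa
Robo2: caaatctgtttgacccattttgaatgagta
Unc5c: aggagccagttgaagacatgactcgcattc

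Among the class 3 semaphorins, the secreted ligands, 2 of 6 tested genes were higher, 2 were lower and 2 were not called. That is 33.3% higher and 33.3% lower, beside 10.6% and 24.4% of all genes. Sema3d, a ligand that in the mouse patterns the pulmonary veins, read −0.34, −1.44 and −0.54 on the positive arrays, against −6.24, −6.34 and −6.70 on the negative arrays. None of the negative arrays was well above background for it, while all 3 positive arrays were. Set against the dimmest probe still well above background on each negative array, Sema3d was at least 19.5-fold higher in positive cells under this scaling. Some brighter probes were not well above background there, so this is no strict limit, and the fitted difference of 5.65 is no measured size. Since Sema3d passed the filter through the positive arrays alone, the limma test (adjusted p = 0.000214) adds nothing. In the authors' series matrix its difference was 1.87 log2 units, and 1.91 after normexp correction. Both were past the threshold, but under the same filter, so these tests add nothing either.

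Sema3b, which signals through neuropilins, gave 2.22, 2.25 and 2.69 in positive cells, against 0.34, 0.29 and 0.31 in negative cells. Each positive value lay over 1 log2 unit above each negative one. The difference was 2.07 ± 0.15 (SE), a 4.20-fold higher level (limma adjusted p = 0.000485).

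Sema3c, a ligand of both neuropilins that is needed for the cardiac outflow tract in the mouse, was the member with the largest fall. It read −2.94, −2.85 and −2.84 on the positive arrays, of which 2 were well above background, against −0.01, −0.35 and 0.08 on the negative arrays. All positive values lay far below all negative ones. The difference was −2.78 ± 0.14, 6.89-fold lower (limma adjusted p = 0.00019), and it was −1.76 in the authors' series matrix and −1.83 after normexp correction. Sema3c passed the filter through the negative arrays alone, so the filter favoured a fall. Its value on positive replicate 1 lay below the dimmest probe still well above background on that array (−2.73), so the fold is approximate. A second probe of Sema3c, above background on 0 of 3 positive and 3 of 3 negative arrays, gave a bound of at least 1.67-fold lower and did not pass on its own (−2.19, adjusted p = 0.127, limma over 17695 probes, of which 31.0% passed).

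Sema3a, the first semaphorin known to collapse growth cones and a ligand of Nrp1, gave −1.03, −2.15 and −1.60 in positive cells and −0.69, −0.48 and −0.68 in negative cells. The groups did not overlap, and the positive arrays were spread wider than the negative ones. It was 1.97-fold lower (−0.98 ± 0.28, limma adjusted p = 0.0376), but 5 of the 6 fits that left out 1 array lost the call. Without positive replicate 2 the difference was −0.70 (adjusted p = 0.0604). Without positive replicate 3 the adjusted p was 0.1, and without negative replicates 1, 2 and 3 it was 0.0931, 0.0979 and 0.102. Its second probe differed by −0.61 (adjusted p = 0.131).

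Sema3f, a ligand of Nrp2, differed by −0.19 (limma adjusted p = 0.245), with positive values up to 4.555 and negative values from 4.559, which come close without overlap. Its sign turned under quantile normalization (0.17), normexp (0.13) and in the series matrix (0.12). Sema3g differed by −0.08 (0.768). Sema3e, a ligand of Plxnd1, was not tested, being above background on 2 positive and 1 negative arrays, with −3.71, −3.77 and −3.90 in positive cells and −4.75, −6.73 and −4.14 in negative cells.

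The class 3 genes on chromosome 5 did not move one way. In mm9 the probe of Sema3d lies 1015.5 kb from that of Sema3a and 4649 kb from that of Sema3c, and the differences of these 3 genes were 5.65 (below background in negative cells), −0.98 and −2.78. On chromosome 9 the probes of Sema3b and Sema3f are 83.1 kb apart, with differences of 2.07 and −0.19.

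Of the 13 membrane semaphorins of classes 4 to 7, 3 were higher, 4 were lower and 6 were not called. That is 23.1% higher and 30.8% lower, beside 10.6% and 24.4% of all genes. Sema6a, which binds Plxna2 and Plxna4, gave 1.68, 1.51 and 1.45 on positive arrays, against 0.23, −0.15 and −0.34 on negative arrays. Every positive value was above every negative one by over 1 log2 unit, and the level was 3.11-fold higher (1.64 ± 0.17, limma adjusted p = 0.00157). Sema4g gave 0.08, −0.03 and 0.52 in positive cells and −0.87, −0.85 and −0.77 in negative cells, 2.02-fold higher (1.02 ± 0.16, adjusted p = 0.00595). Sema4f was the weakest of the higher ones, with −1.99, −2.58 and −2.20 in positive cells and −2.77, −2.85 and −2.90 in negative cells. Its lowest positive and highest negative values are close. The difference was 0.59 ± 0.17 (limma adjusted p = 0.0396), but only 0.12 (adjusted p = 0.382) in the series matrix and 0.13 (0.332) after normexp, and leaving out any array but positive replicate 2 lost the call, with adjusted p between 0.0587 and 0.123.

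Sema5b had the largest fall among the membrane semaphorins. Together with Sema5a it forms the class with thrombospondin repeats, and both repel retinal neurites in the mouse. Sema5b gave −1.94, −1.90 and −1.78 in positive cells, against −0.00, 0.29 and 0.07 in negative cells. The groups are far apart with little spread in either, a 3.97-fold lower level (−1.99 ± 0.12, limma adjusted p = 0.000296), and a second probe gave −1.73. Sema5a gave 1.73, 1.25 and 1.36 in positive cells and 2.29, 2.55 and 2.64 in negative cells, 2.06-fold lower (−1.04 ± 0.17, adjusted p = 0.00613).

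Sema4d, the ligand of Plxnb1, gave −0.56, −0.69 and −0.65 in positive cells, against 0.46, 0.78 and 0.57 in negative cells. The groups lay on opposite sides of the 75th percentile of their arrays. It was 2.35-fold lower (limma adjusted p = 0.00131). Sema4b gave 0.44, 0.36 and 0.49 in positive cells and 0.76, 0.74 and 1.03 in negative cells. Its difference of −0.41 ± 0.12 (limma adjusted p = 0.0437) was past the threshold by a little, and each of the 6 fits without 1 array put it between 0.0589 and 0.127. Blocking by slide gave 0.0625.

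The membrane semaphorins that did not pass were Sema4a (0.12, limma adjusted p = 0.427), Sema4c (−0.14, 0.786), Sema6b (1.16, 0.0784), Sema6c (0.45, 0.227), Sema6d (−0.14, 0.844) and Sema7a (0.82, 0.162). Sema6b, a ligand of Plxna4, read −2.12, −2.88 and −2.99 in positive cells, against −3.51, −3.27 and −4.71 in negative cells, with no overlap. Blocking by slide put it past the threshold (0.0291). Sema6b passed the filter through its positive arrays alone, with 2 of 3 negative arrays above background, so the filter favoured a rise. Its difference was 0.31 (0.137) in the series matrix and 0.32 (0.132) after normexp, and 0.72 (0.154) without negative replicate 3. Sema7a, a membrane-anchored ligand of Plxnc1 and of an integrin, read −0.83, −2.47 and −2.01 in positive cells and −2.49, −2.62 and −2.65 in negative cells, and without positive replicate 1 its difference was 0.35.

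The probes of Sema4c and Sema6d hold 11 and 10 repeats of GT in their 60 bases, shown here because these values followed other repeat probes on the array. In mm9 they lie at chr1:36605998-36606057 (bases 1 to 30 printed) and chr2:124491609-124491668 (bases 31 to 60 printed), and capitals mark the repeat.
Sema4c: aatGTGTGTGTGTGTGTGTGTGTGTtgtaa
Sema6d: agaggggcgaGTGTGTGTGTGTGTGTGTGT
Sema4c gave 7.54, 6.19 and 6.34 in positive cells and 6.92, 6.68 and 6.89 in negative cells. Sema6d gave 2.70, 0.97 and 0.93 in positive cells and 1.70, 1.79 and 1.52 in negative cells. For both, positive replicate 1 was the highest of all arrays, and the other positive arrays were lower than every negative one. Positive replicate 1 exceeded the mean of the other 2 positive arrays by 1.27 for Sema4c and by 1.75 for Sema6d. Over the 155 probes on the array with at least 6 repeats of GT or AC, and above background on all arrays, that excess had a median of 1.34 and was positive in 154, against a median of 0.04 over all 21705 such probes of any sequence. Without positive replicate 1, both genes passed the limma threshold as lower, Sema4c by −0.57 (adjusted p = 0.0208) and Sema6d by −0.72 (0.00918). Repeat probes of unrelated genes also differed there, some down and some up. The Creb5 probe gave 7.05 and 7.19 on positive replicates 2 and 3, against 7.49 to 7.65 on the negative arrays. The Zfp663 probe gave 5.06 and 4.66, against 3.56 to 4.44. What the repeat contributes to these values was not tested.

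**Figure D3:**
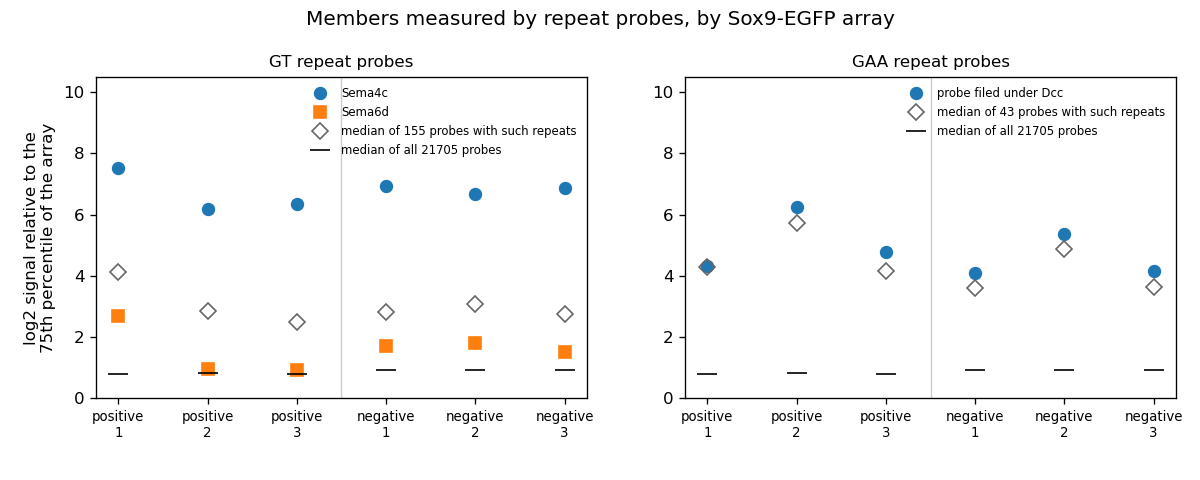
Log2 signal relative to the 75th percentile (vertical axis) on the 3 Sox9-EGFP positive and then the 3 negative arrays, for the GT repeat probes of Sema4c and Sema6d (left) and for the GAA repeat probe filed under Dcc (right). Diamonds are the medians of the 155 and 43 repeat probes of the same kind, and bars the median of all 21705 probes above background. Sema4c, Sema6d and the GT median are highest on positive replicate 1, and the probe filed under Dcc and the GAA median are highest on positive replicate 2 within the positive and negative replicate 2 within the negative group.

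Both neuropilins, the binding receptors of class 3 semaphorins, were lower in Sox9-EGFP positive cells. Nrp2 gave 5.23, 5.56 and 5.49 in positive cells, against 6.97, 6.84 and 6.90 in negative cells. Its groups lay over 1 log2 unit apart at their closest, a 2.78-fold lower level (−1.48 ± 0.13, limma adjusted p = 0.000811), with −1.29 at a second probe. Nrp1, which is also a receptor for VEGF, gave −1.04, −1.29 and −1.34 in positive cells and −0.52, −0.66 and −0.40 in negative cells. It was 1.63-fold lower (−0.70 ± 0.13, adjusted p = 0.00979).

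Of the 8 plexins tested, the receptors that signal for semaphorins, 1 was higher, 2 were lower and 5 were not called. These shares of 12.5% and 25.0% are near those of all genes, 10.6% and 24.4%. Plxna4 gave −0.42, −0.10 and 0.20 in positive cells, against 2.33, 2.24 and 2.37 in negative cells. All negative values were over 2 log2 units above the highest positive one, and the level was 5.35-fold lower (−2.42 ± 0.17, limma adjusted p = 0.000452). A second Plxna4 probe was above background on only 1 array, in the negative group, and was not tested. Plxna2 went the other way. It gave −1.69, −1.24 and −0.74 in positive cells and −2.56, −2.70 and −2.27 in negative cells, 2.44-fold higher (1.28 ± 0.26, adjusted p = 0.012). Its difference was 0.55 (0.0811) in the series matrix and 0.57 (0.0797) after normexp, and its adjusted p was 0.0623 after quantile normalization. Plxna2, Plxna4 and their ligand Sema6a were thus called higher, lower and higher.

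Plxnd1, the plexin of endothelial cells that binds Sema3e, gave 0.34, 0.20 and 0.21 in positive cells and 0.65, 1.25 and 0.68 in negative cells. Its highest value was on negative replicate 2, the array with the highest red cell and leukocyte markers, and a link to those markers was not tested. The difference was −0.61 ± 0.19 (limma adjusted p = 0.0453) and −0.41 (0.0528) without that array. None of the 6 fits without 1 array kept the call (up to 0.12), and a second probe gave −0.13 (0.677). Plxna1, Plxna3, Plxnb1, Plxnb2 and Plxnc1 differed by 0.43, −0.08, 0.29, −0.35 and −0.34 and were not called (adjusted p between 0.0630 for Plxnb2 and 0.654 for Plxna3). Plxnb1 and Plxnb2 passed without positive replicate 1, at 0.71 (0.0322) and −0.41 (0.0359). Plxnb3 was above background on no array.

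Robo1 and Robo2 were among the members with the largest rises. Robo1 gave 2.35, 1.46 and 1.62 in positive cells, against 0.11, −0.14 and −0.54 in negative cells. Robo2 gave 2.96, 1.96 and 2.18 in positive cells, against 0.17, 0.63 and −0.09 in negative cells. In both genes each positive array lay over 1 log2 unit above each negative one, and positive replicate 1 was the highest. Robo1 was 4.0-fold higher (2.0 ± 0.28, limma adjusted p = 0.00377), and within the slides the differences were 2.48, 2.0 and 1.51. Robo2 was 4.37-fold higher (2.13 ± 0.31, limma adjusted p = 0.00411), with 2.33, 2.05 and 2.01 within the slides and 1.93 at a second probe. Robo4, an endothelial member of the family, differed by −0.32 (0.515), with its highest value on negative replicate 2, and Robo3 was above background on no array. The probes of Robo1 and Robo2 lie 848.5 kb apart on chromosome 16 of mm9, and those of Robo3 and Robo4 2.8 kb apart on chromosome 9.

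The 250 bases before the annotated start of Robo1 and Robo2 (RefSeq, GRCm38.p6) are printed because these neighbouring genes rose together, and those of Sema3d and Sema3c because these genes of one class differed in opposite directions. Robo1 is chr16:72662899-72663148 on the plus strand, Robo2 chr16:75447294-75447543 on the minus strand (the first of its 3 starts), Sema3d chr5:12382916-12383165 and Sema3c chr5:17574566-17574815, both on the plus strand.
Robo1: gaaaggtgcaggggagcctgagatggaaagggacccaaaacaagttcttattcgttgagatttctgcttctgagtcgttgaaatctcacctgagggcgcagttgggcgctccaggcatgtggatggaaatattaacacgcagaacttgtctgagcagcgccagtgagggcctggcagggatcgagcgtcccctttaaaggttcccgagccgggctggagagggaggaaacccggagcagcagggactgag
Robo2: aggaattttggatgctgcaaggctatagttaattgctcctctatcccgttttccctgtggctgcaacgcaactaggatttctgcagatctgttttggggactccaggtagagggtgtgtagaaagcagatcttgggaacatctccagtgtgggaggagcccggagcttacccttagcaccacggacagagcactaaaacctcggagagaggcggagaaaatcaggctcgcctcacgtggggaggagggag
Sema3d: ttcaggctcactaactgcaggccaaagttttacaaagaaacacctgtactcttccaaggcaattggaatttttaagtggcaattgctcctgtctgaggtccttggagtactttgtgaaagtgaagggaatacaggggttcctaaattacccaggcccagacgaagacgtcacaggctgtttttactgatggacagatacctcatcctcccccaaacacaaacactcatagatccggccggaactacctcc
Sema3c: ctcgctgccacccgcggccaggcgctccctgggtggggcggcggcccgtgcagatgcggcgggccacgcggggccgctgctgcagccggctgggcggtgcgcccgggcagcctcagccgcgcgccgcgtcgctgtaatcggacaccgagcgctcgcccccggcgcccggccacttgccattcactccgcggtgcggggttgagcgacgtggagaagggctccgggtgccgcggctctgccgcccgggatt
The G and C content of these windows was 56.0% for Robo1, 53.2% for Robo2, 46.8% for Sema3d and 78.4% for Sema3c. None of them holds AACAAT, the core that SOX proteins bind, or CTTTGA, the core of TCF and LEF sites, on either strand (ATTGTT and TCAAAG on the other). The 2 motifs can share at most 1 base, and they were found in windows of the same length for 10.9% and 15.8% of 27025 mouse genes. Of 39 members with a window, AACAAT was in 2 (Plxnb3, Sema4d) and CTTTGA in 3 (Nrp2, Robo4, Sema3e). Such matches describe letters in a window and say nothing of the factors.

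Of the Slits, the ligands of Robos, Slit1 was called. It gave −2.26, −3.0 and −3.18 in positive cells, against −3.66, −3.56 and −4.21 in negative cells. The groups did not overlap but came close. The difference was 1.0 ± 0.29 (limma adjusted p = 0.0396), against 0.25 (0.165) in the series matrix and 0.26 (0.154) after normexp. Leaving out positive replicate 2 (0.0652) or negative replicate 1 (0.0866), 2 (0.0574) or 3 (0.125) ended the call. Slit2 differed by −0.57 (0.144) and passed only as lower without positive replicate 1 (−0.79, 0.036) or with array weights, and Slit3 differed by −0.11 (0.669).

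No netrin was called. Ntn1, the ligand of Dcc and Unc5 receptors, gave −1.82, −3.12 and −3.46 in positive cells and −4.12, −3.31 and −4.10 in negative cells, which overlap at negative replicate 2. Its difference was 1.05 ± 0.46 (limma adjusted p = 0.124), which a block by slide moved to 0.0157 and array weights to 0.0315. It was 0.31 (0.239) in the series matrix and 0.32 (0.237) after normexp, and 0.56 (0.165) without positive replicate 1. A second Ntn1 probe, above background on 2 positive arrays and no negative one, was not tested. It gave −3.22, −4.50 and −4.64 in positive cells and −6.53, −5.78 and −6.94 in negative cells, without overlap. Ntn3 differed by 0.09 (0.635). Ntn4, a netrin of basement membranes, was above background on 1 positive array and Ntn5 on none.

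The Unc5 receptors of netrins moved in opposite directions. Unc5c gave 2.08, 2.12 and 2.58 in positive cells, against 0.03, −0.12 and −0.05 in negative cells, with over 2 log2 units between the groups. It was 4.95-fold higher (2.31 ± 0.16, limma adjusted p = 0.000452), and a second probe gave 2.57. Unc5b, a receptor known from endothelial tip cells, gave 3.61, 3.83 and 3.99 in positive cells and 4.82, 4.80 and 4.86 in negative cells, 2.02-fold lower (−1.02 ± 0.13, adjusted p = 0.00273). Unc5a differed by −0.23 (0.301) and passed under quantile normalization (−0.45, 0.034), with −0.075 (0.767) after median centring, and Unc5d was above background on no array. Neo1, the neogenin receptor, differed by 0.05 (0.771), with 2.27 to 2.53 in positive and 2.18 to 2.40 in negative cells.

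The probe that stands for Dcc holds 17 repeats of GAA and lies on chromosome 7 of mm9 (68417162 to 68417221), while the other 2 Dcc probes lie on chromosome 18. It gave 4.34, 6.24 and 4.79 in positive cells and 4.10, 5.37 and 4.14 in negative cells, a difference of 0.58 (limma adjusted p = 0.467). Among 43 GAA or TTC repeat probes above background on all arrays, positive replicate 2 exceeded the other positive arrays in 42, with a median of 1.55, and negative replicate 2 exceeded the other negative ones in all 43. The chromosome 18 probes were above background on 1 array and on none. Without the repeat probe the member counts were 10 higher and 11 lower of 41.

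Genes that work with these families were listed from general knowledge. Of 34 tested semaphorin and plexin partners, 3 were higher and 7 lower in positive cells (median −0.13, beside −0.18 over all genes). That is 8.8% higher and 20.6% lower, beside 10.6% and 24.4% of all genes. Dpysl3 and Crmp1, collapsin response mediators that act downstream of Sema3a, were called in opposite directions. Dpysl3 differed by 1.76 and Crmp1 by −1.75 (limma adjusted p = 0.000476 and 0.000713). In the same family Dpysl2 was lower (−0.39, limma adjusted p = 0.04), and Dpysl4 (0.33) and Dpysl5 (−0.25) were not called. Mst1r, a receptor tyrosine kinase that associates with Plxnb1, differed by 1.70 (0.000945), and Nrcam, an adhesion molecule that associates with neuropilins, by −1.86 (0.00627). Nrcam and the lower partners Rnd1 and Itga1 passed the filter through their negative arrays alone, each with 2 of 3 positive arrays above background. For these genes the filter favoured a fall.

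Of 25 tested Slit and Robo partners, 1 was higher and 4 lower (median −0.21), or 4% and 16%, beside 10.6% and 24.4% of all genes. The 1 higher was Srgap3, a GTPase-activating protein that binds Robo receptors, at 2.14 (limma adjusted p = 0.000733). It gave 0.52, 0.92 and 1.05 in positive cells, against −1.50, −1.26 and −1.16 in negative cells, without overlap. Sdc2 and Sdc1, heparan sulfate proteoglycans of the syndecan family, differed by −1.96 and −1.26 (0.000201 and 0.00845), and Cables1, an adaptor of Abl kinases, by −0.75 (0.0153).

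Of 25 tested netrin, Dcc and neogenin partners, 8 were higher and 3 lower (median 0.10), or 32% and 12%, beside 10.6% and 24.4% of all genes. Boc, a cell surface protein related to Robos in its domains and known as a hedgehog coreceptor, gave 2.42, 2.32 and 2.45 in positive cells and 0.34, 0.54 and 0.27 in negative cells, a difference of 2.02 (limma adjusted p = 0.000243). Flrt2, a ligand of Unc5 receptors, differed by 1.18 (0.00111) and its relative Flrt1 by −2.18 (0.000713). Bmp2, bound by proteins of the RGM family, which are also ligands of neogenin, differed by −2.15 (0.00104).

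The calls differed in how far they rested on the processing. All 18 alternatives that gave a value kept the call of 14 of the 21: Nrp2, Plxna4, Robo1, Robo2, Sema3b, Sema3c, Sema3d, Sema4d, Sema4g, Sema5a, Sema5b, Sema6a, Unc5b and Unc5c. The other 7 lost it under 1 alternative or more, namely Nrp1 under 1, Plxna2 under 3, Slit1 under 8, Sema3a under 9, Sema4f under 10, and Plxnd1 and Sema4b under 14 each. No called member changed sign in any of them. Sema3d and Sema3c, which passed the filter through 1 group alone, had no value under the filter on all 6 arrays. Most other alternatives used the same filter as the main fit, so the calls that Sema3d and Sema3c kept there add little. An exact test of 3 against 3 arrays cannot give a p below 0.1, so the adjusted p-values lean on limma's pooling of variance across genes.

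**Figure D4:**
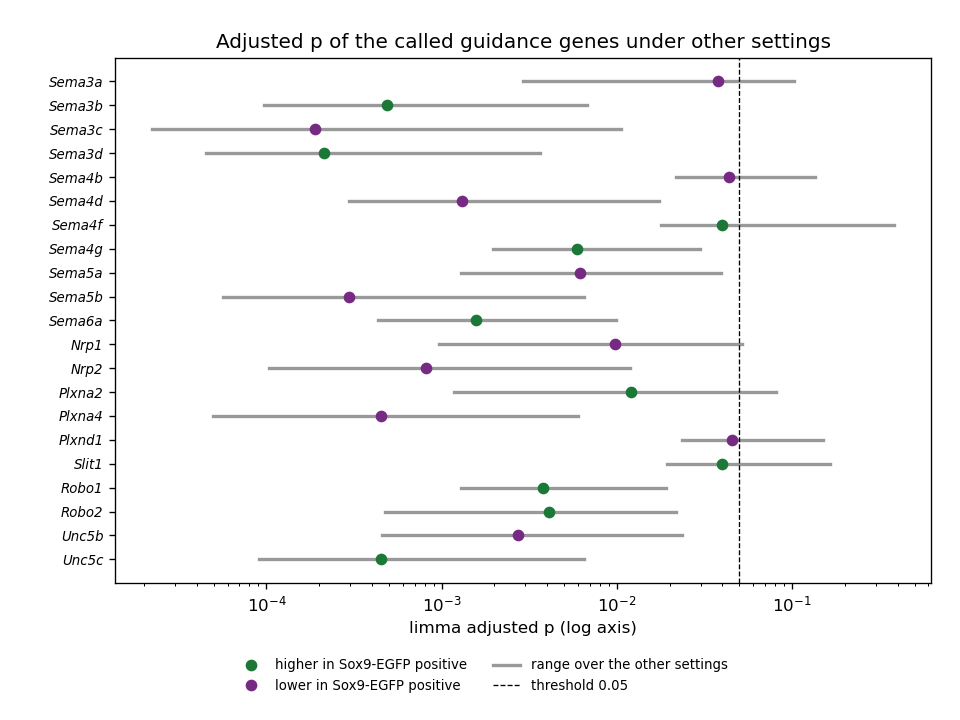
Adjusted p (log axis) of the 21 called genes in limma (points, coloured by direction in Sox9-EGFP positive cells) with the range over the other settings as a bar and the threshold of 0.05 as a dashed line. The bars of 14 genes stay left of the line, and those of Nrp1, Plxna2, Plxnd1, Sema3a, Sema4b, Sema4f and Slit1 cross it.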

How the data were processed

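Total RNA of 6 sorted samples, 3 Sox9-EGFP positive and 3 Sox9-EGFP negative, was measured on 1-colour Agilent arrays. Per the file headers, the authors' intensity values were made with Feature Extraction 10.7.3.1, which corrects background and trends within an array and does not scale between arrays, and the deposited flags mark outlier spots and spots well above background. The deposited series matrix holds log2 values with one median of 6.41 in every column, and no source names their background correction.

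Here the intensities were taken as log2 values minus the 75th percentile of each array's non-control spots. Control and outlier spots were left out and replicate spots averaged. The test took probes whose flags put them well above background on every array of 1 group or both, and the brightest probe stood for a gene. Names came from RefSeq by accession (26294 probes), symbol (2049) or older symbol (355), with 26983 probes unnamed and 7 lost to outlier spots. This gave 13196 genes, compared with limma 3.58.1 in R 4.3.3, with Benjamini-Hochberg adjustment over all of them and a threshold of 0.05. Slide and replicate number entered as alternatives only: deviations from the group means correlated at −0.274, −0.418 and 0.157 for arrays of one replicate number, and at 0.463, 0.358 and 0.229 for arrays of one slide.

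A fold is given as "at least" where no array of a group was well above background. It sets the mean of the other group against the dimmest probe still well above background on each dim array. Some brighter probes lacked the flag, so such a fold is no strict limit and holds for this scaling only. Every member is accounted for, and the called ones are given by array. Second probes are given where probes of a gene differ in their call, and up to 4 called genes of smallest adjusted p are named in each partner list. Second probes that were called alike, markers, neighbouring genes and further semaphorin and plexin partners were named after their values were seen. The members and lists were chosen with earlier results of these data known. Alternatives were normexp correction (offset 50), quantile normalization, median centring, the series matrix, other filters and probe rules, blocks by slide and replicate number, array weights and leaving out each array. The method was tested on simulated data. The sequence of 1 probe and 2 marker genes are not reported here.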

Additional observations from a re-analysis of the deposited data

How the results depend on the processing

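With 3 arrays a group, and with positive replicate 1 dimmer than the rest, precision is limited by the arrays, and signals near background by the spot's own background. Of 4617 genes called, 69.7% were lower, and under the other 4 scalings 53.7% to 55.4% were. The number of genes called was 2656 without the filter on background, and 2485 to 5176 when 1 array was left out, being 2911 without positive replicate 3, 2542 without negative replicate 1 and 2485 without negative replicate 3. Members called higher numbered 8 to 10 and lower 8 to 13 with 1 array left out. With the replicate number as a block, 2157 genes were called, 9 members higher and 7 lower, but the arrays share only a number. Leaving out the repeat probe filed under Dcc, an alternative chosen after seeing the data, changed neither member count. Under the other scalings members called higher and lower numbered 7 and 9 (normexp), 7 and 10 (quantile), 10 and 8 (median centring) and 7 and 9 (series matrix). In the same order, 1623, 1417, 1853 and 1539 of all 13196 genes were called higher, and 1885, 1758, 2243 and 1910 lower. The main fit called 1400 genes higher and 3217 lower, so the excess of higher members over all genes varied with the scaling. Of the 21 members not called, 9 changed sign somewhere (32 values), without passing the threshold in that sign. Under normexp the differences were 0.082 for Plxna3, 0.13 for Sema3f, 0.16 for Sema4c, 0.043 for Sema6d and 0.074 for Slit3. Under quantile normalization they were 0.069 for Plxna3, 0.028 for Plxnb2, 0.17 for Sema3f, 0.15 for Sema4c, 0.011 for Sema6d and 0.069 for Slit3. With median centring they were 0.066 for Plxna3, 0.071 for Sema3g, 0.0083 for Sema4c, 0.012 for Sema6d and 0.039 for Slit3. In the series matrix they were 0.073 for Plxna3, 0.12 for Sema3f, 0.12 for Sema4c, 0.027 for Sema6d and 0.057 for Slit3. With array weights Neo1 was at −0.058. With 1 array left out the differences ran from −0.022 to 0.11 for Neo1, −0.17 to 0.022 for Plxna3, −0.56 to 0.070 for Robo4, −0.19 to 0.086 for Sema3g, −0.57 to 0.11 for Sema4c, −0.72 to 0.16 for Sema6d and −0.26 to 0.0076 for Slit3. The cause of these changes was not tested.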
